A study of Mus musculus with 14 samples.

Results

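Ribosome footprints from the cerebral cortex were compared between mice lacking Fmr1 and mice with an intact Fmr1 gene, and the comparison was read across pathways and functional classes. The 6 footprint libraries, 3 from Fmr1 KO mice and 3 from control mice, were all the ribosome profiling libraries among the 14 samples of the series; the other 8 were RNA-seq libraries. Controls carried the genotype Rpl22flox/flox;CamKCre+, and KO mice carried Fmr1X-Y with the same floxed Rpl22 allele and the same Cre. So both groups had a CamK-driven Cre, and the source of every sample was named CAMKIIa-Ribotag mouse brain, with cortex as the tissue. RiboTag mice are built so that Cre switches Rpl22 to a tagged form in the cells where it is active. The labels' protocols describe monosomes taken on a sucrose gradient from brain lysate treated with RNase I and name no pull-down of tagged ribosomes, and the labels give neither the age of the mice nor whether tissue of several mice was pooled. The control libraries are given below in the order mouse 1, mouse 9 and mouse 3, and the KO libraries in the order mouse 2, mouse 10 and mouse 4. The series title names translation elongation in the brain of Fmr1 KO mice as the study's subject.

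A ribosome covers a short stretch of the mRNA it reads and shields it from nuclease. Sequencing these stretches counts the ribosomes on each mRNA, so a footprint count depends both on how much mRNA there is and on how many ribosomes sit on each copy. FMRP, the product of Fmr1, is an RNA-binding protein that associates with ribosomes and with many long neuronal mRNAs, and its loss causes fragile X syndrome. It is known mainly as a repressor of translation, including by slowing or stalling ribosomes, and its targets include many synaptic and chromatin proteins.

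The gene BC048546 was left out of the table and of all totals. It took 2.25% to 2.49% of the counts of the control footprint libraries and lay at 24289 ± 1383 CPM (footprint or RNA counts scaled to the library total, as throughout) in controls against 16.0 ± 1.68 CPM in KO libraries (SD, n = 3), while its RNA lay at 5.90 ± 0.414 and 5.99 ± 0.825 CPM (SD, n = 4). Without it, the footprint libraries held 4123991 to 5882754 counts. Fmr1 checked the labels. Its footprints were at 112, 116 and 116 in control and 8.64, 8.06 and 5.87 CPM in KO libraries, so that the KO libraries held 6.55% of the control level (log2 change -3.93 ± 0.11, adjusted p = 1.40e-54; exact permutation test on CPM, two-sided p = 0.1, the smallest that 3 against 3 libraries can give). Rpl22, floxed in both groups, was at 22.2, 19.01 and 21.7 in control and 21.1, 19.1 and 19.4 CPM in KO libraries and did not pass the test (log2 change -0.073 ± 0.13, adjusted p = 0.736).

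The 3 libraries of a genotype lay close together. Below, values given as "from a to b" are group means ± SD (n = 3). In parentheses, a log2 change is the edgeR log2 fold change of KO over control footprints with its SE, beside its adjusted p. A chi-square statistic per degree of freedom over genes was 1.15 to 1.42 between libraries of the same genotype and 4.83 to 5.92 between genotypes, where counting noise alone gives about 1. The biological coefficient of variation of the footprint libraries was 0.021, against 0.077 in the RNA libraries. Between RNA libraries of the same genotype the chi-square statistic per degree of freedom was 1.18 to 11.8. The KO library of mouse 5 lay at 5.64 to 6.02 from the other KO libraries. Among controls mice 1 and 3 lay at 1.99 from each other, mouse 6 at 4.12 and 4.57 from these, and mouse 8 at 4.03 to 11.8 from the other 3. RNA values over all 8 libraries include mice 5, 6 and 8. P-values below therefore measure only the spread between these 6 samples, which may be partly technical, and small differences pass the test. Each count of calls in a gene list is therefore also given with the wider spread of the RNA libraries put in place of that of the footprints, an alternative chosen after the data were seen. The alternative takes the common coefficient of variation of the RNA libraries, 0.077, and not the RNA spread of each gene. After a list's rises and falls, a pair in parentheses headed "RNA spread" gives the counts from this alternative in the same order. Where a gene's adjusted p is printed and its call is lost with this spread, that adjusted p follows the first, after "or".

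In KO cortex the footprints of 1431 genes rose and those of 1682 genes fell, out of 12175 tested (edgeR quasi-likelihood F test, Benjamini-Hochberg adjusted p under 0.05, the threshold for every call below). That is 25.6% of all genes, with 11.8% higher and 13.8% lower. With the spread of the RNA libraries, 528 genes rose and 723 fell, all of them among the calls just given. On plain library totals the balance was reversed, with 1728 rises and 1429 falls. Most changes were small. The median called change had a size of 0.31 on the log2 scale, 270 genes rose and 328 fell by more than 0.5, and 69 rose and 44 fell by more than 1. The KO and control libraries of 4532 genes did not overlap (37.2% of all genes tested, 17.8% higher and 19.4% lower), among them 2897 of the 3113 called genes. The median log2 fold change over all genes was 0.0033.

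The share of genes called was higher in genes with more footprints. Among genes under 10 CPM, 4.29% were called higher and 4.26% lower. From 10 to 50 CPM these shares were 9.68% and 8.94%, from 50 to 200 CPM 17.8% and 22.3%, and from 200 CPM upward 24.4% and 38.8%. Each list's counts are therefore given with its median level, the median over its tested members of the mean footprint CPM, and with the shares called beside those of all genes in the class that holds that level, in the same order. These shares come from the calls with the footprints' own spread. No such shares by class were made for the RNA spread, which called 528 of all 12175 genes higher and 723 lower. A long mRNA collects more footprints than a short one at the same ribosome density. Of 43 functional lists, 22 had more members called lower than higher, 18 had more called higher, and 3 had equal numbers. Set beside their level class, 8 lists had more than 1.5 times the share of falls and 15 more than 1.5 times the share of rises. The 8 were giant linkers, chromatin genes, FMRP targets, postsynaptic scaffolds, synaptic adhesion proteins, large ubiquitin ligases, ion pumps and splicing factors. The 15 were immediate early transcription factors, activity-regulated effectors, feedback inhibitors of MAP kinase signalling, cytosolic and mitochondrial ribosomal proteins, both respiratory lists, the proteasome, the vacuolar ATPase, lipid synthesis, GABA receptors, potassium channels, histones, Mediator with RNA polymerase II, and phosphodiesterases with adenylyl cyclases. The other 20 passed neither mark, which is a description with no test. Small counts were unstable: of the 39 counts of 1 to 3 calls in 1 direction of a list, cell type markers included, 23 moved by more than 1.5 times when some single library was left out. Such moves are named below for counts of 4 or more.

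**Figure D1:**
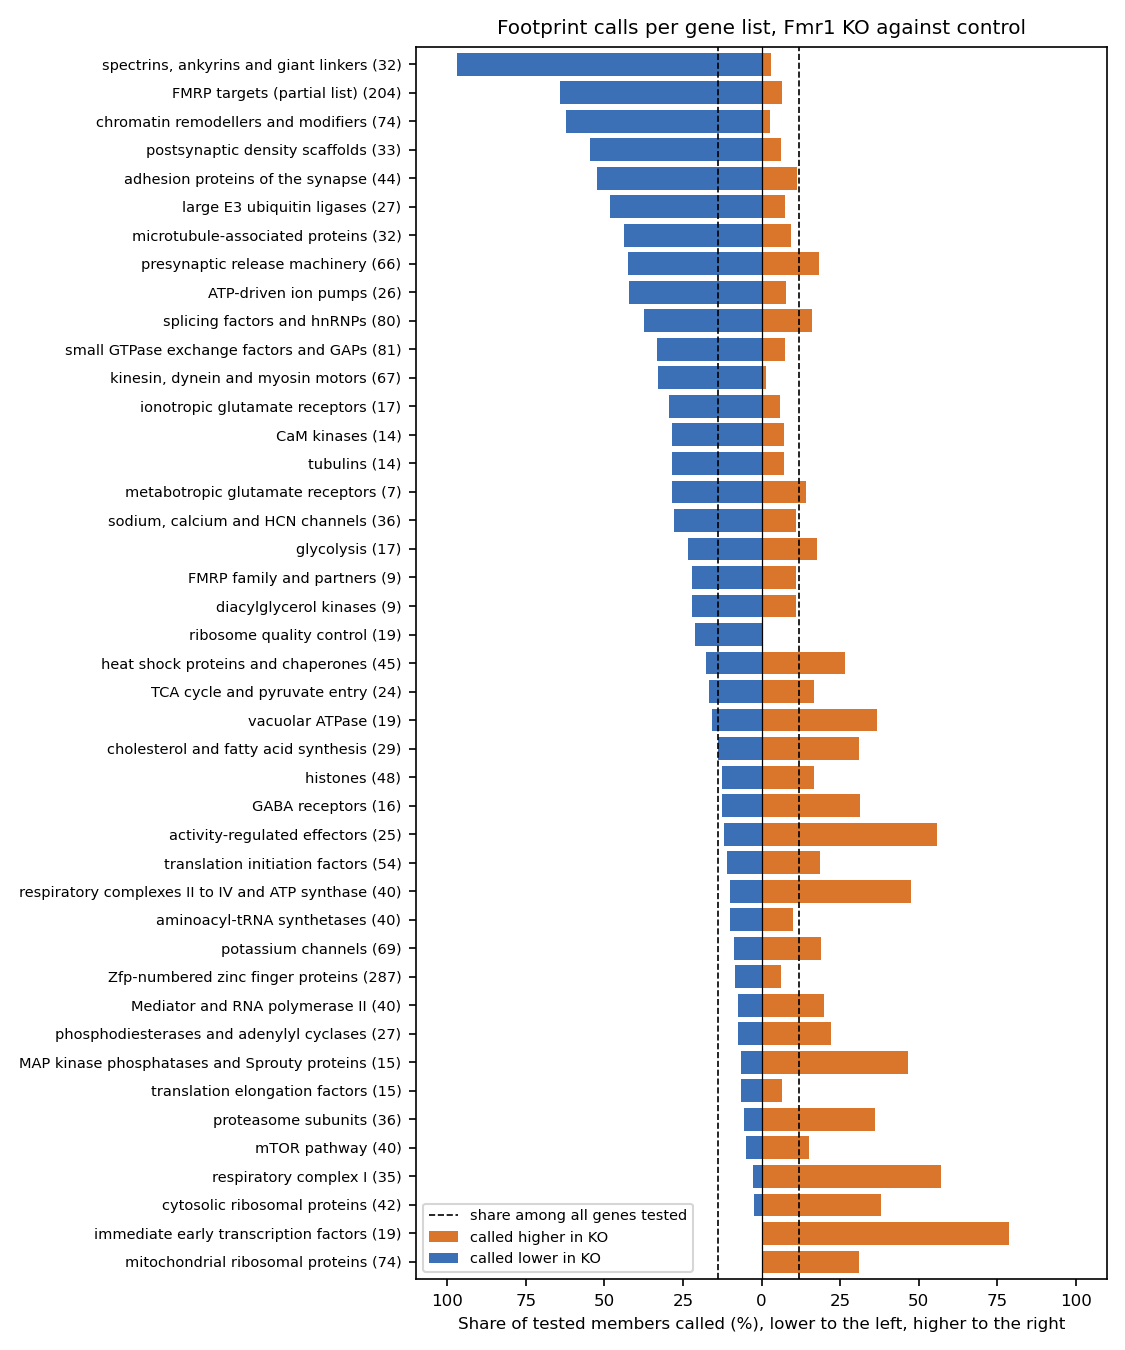
Share of the tested members of each of 43 functional gene lists called higher (right) or lower (left) in the footprints of Fmr1 KO cortex, in percent, with the number of tested members in parentheses. Dashed lines mark the shares over all 12175 genes tested, 11.8% higher and 13.8% lower; 31 of 32 giant cytoskeletal linkers lie on the lower side and 15 of 19 immediate early transcription factors on the higher side.

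Genes switched on by neuronal activity held 7 of the 8 largest rises at 5 CPM or more without overlap. Immediate early genes are transcribed within minutes of strong synaptic input or growth factor signalling without the need for new protein, and many encode transcription factors that in turn switch on effectors of plasticity. Of 19 tested immediate early transcription factors, 15 rose and none fell, where 11.8% of all genes rose and 13.8% fell, with a median log2 fold change of 1.25. The same 15 were called with the common spread of the RNA libraries, and none fell. The 4 that did not pass, named here after their values were seen, were Jun, Jund, Nr4a2 and Klf4. The list's median level was 68.7 CPM (78.9% and 0% against 17.8% and 22.3%). The RNA of Egr2 spread more widely, at 2.42, 3.42, 2.77 and 11.3 CPM in the control mice 1, 3, 6 and 8. The rises were not tested with each gene's own RNA spread. The promoters of 4 of these genes are printed because they show how far the members that moved together share a motif. They are the immediate early transcription factors among the 8 largest rises that have exactly 1 start site in the promoter table. Each is the stretch of 250 bases before the transcription start, 5′ to 3′ on the gene's strand, from RefSeq on GRCm38.p6, with capitals marking the core of the cyclic AMP response element (TGACGT, sought on both strands, so that ACGTCA also counts):
Fos promoter, chr12:85473640-85473889, plus strand: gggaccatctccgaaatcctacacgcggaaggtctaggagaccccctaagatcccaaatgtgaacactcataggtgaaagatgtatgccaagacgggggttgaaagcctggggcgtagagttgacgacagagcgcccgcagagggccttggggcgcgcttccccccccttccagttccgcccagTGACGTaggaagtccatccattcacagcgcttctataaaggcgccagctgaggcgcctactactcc
Fosb promoter, chr7:19310046-19310295, minus strand: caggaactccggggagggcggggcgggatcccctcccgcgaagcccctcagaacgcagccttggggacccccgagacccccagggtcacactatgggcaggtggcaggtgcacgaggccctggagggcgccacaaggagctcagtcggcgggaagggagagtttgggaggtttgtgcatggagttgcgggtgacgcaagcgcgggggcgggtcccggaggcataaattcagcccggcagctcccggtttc
Npas4 promoter, chr19:4989972-4990221, minus strand: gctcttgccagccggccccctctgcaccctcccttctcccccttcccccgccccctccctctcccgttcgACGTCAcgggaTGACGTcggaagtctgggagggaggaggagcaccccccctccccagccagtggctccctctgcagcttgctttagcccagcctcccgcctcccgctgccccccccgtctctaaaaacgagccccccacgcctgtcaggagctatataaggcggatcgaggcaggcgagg
Nr4a1 promoter, chr15:101266596-101266845, plus strand: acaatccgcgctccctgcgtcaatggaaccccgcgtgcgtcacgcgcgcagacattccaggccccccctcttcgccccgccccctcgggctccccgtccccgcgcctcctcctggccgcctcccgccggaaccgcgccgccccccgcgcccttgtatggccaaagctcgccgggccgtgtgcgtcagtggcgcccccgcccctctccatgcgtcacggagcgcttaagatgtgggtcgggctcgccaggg

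In these stretches the motif began 66 bases before the start of Fos and 180 and 169 bases before that of Npas4, and it was not found in those of Fosb and Nr4a1. Of the 15 called immediate early transcription factors, 11 matched the promoter table and 6 held the motif, as did 6 of 10 matched activity-regulated effectors that rose and 2 of 6 matched feedback inhibitors of MAP kinases that rose. Over all 32851 promoters of the table the share with the motif was 6.47%, and over those of tested genes it was 9.83%. The CArG box, the site of serum response factor, was found in 1 of the 11, 0 of the 10 and 1 of the 6, in 1.47% of all promoters and in 1.18% of those of tested genes. A match is a description of these letters only.

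Fos, a subunit of the AP-1 transcription factor, was at 31.8, 32.6 and 28.4 in control and 212, 225 and 222 CPM in KO libraries (log2 change 2.83 ± 0.065, adjusted p = 4.10e-61). Egr2, a zinc finger transcription factor, was at 6.45, 6.28 and 4.64 in control and 40.8, 42.8 and 44.1 CPM in KO libraries (log2 change 2.89 ± 0.14, adjusted p = 4.00e-33). Nr4a1, an orphan nuclear receptor, was at 46.6, 41.8 and 39.6 in control and 271, 294 and 275 CPM in KO libraries (log2 change 2.73 ± 0.057, adjusted p = 3.05e-64). In each of the 3 genes every KO library lay several times above every control library, with little spread within a genotype. Npas4, a transcription factor that controls inhibitory synapses onto active neurons, was at 17.4, 14.9 and 14.4 in control and 71.5, 79.1 and 65.3 CPM in KO libraries (log2 change 2.22 ± 0.10, adjusted p = 8.73e-36). Fosb was at 4.78, 4.30 and 3.78 in control and 24.2, 24.8 and 20.1 CPM in KO libraries (log2 change 2.44 ± 0.18, adjusted p = 2.37e-21). Egr1 had the most counts of the list and was at 351, 377 and 337 in control and 837, 854 and 834 CPM in KO libraries, a smaller rise (log2 change 1.25 ± 0.030, adjusted p = 1.91e-59).

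Effectors that act at the synapse or outside the cell moved in both directions. Of 25 tested activity-regulated effectors, 14 rose and 3 fell (RNA spread 11 and 0; median level 78.1 CPM; 56% and 12% against 17.8% and 22.3%), with a median log2 fold change of 0.26. Arc, which drives endocytosis of AMPA receptors and whose mRNA is a known FMRP target, was at 84.5, 84.7 and 84.8 in control and 572, 561 and 576 CPM in KO libraries (log2 change 2.75 ± 0.040, adjusted p = 1.78e-78). Cyr61, a secreted matrix protein, was at 5.97, 7.71 and 7.40 in control and 70.1, 68.5 and 67.8 CPM in KO libraries (log2 change 3.27 ± 0.12, adjusted p = 1.93e-43), the largest rise of all genes at 5 CPM or more. The groups of both genes were far apart. Vgf, the precursor of several secreted peptides, was at 683, 709.7 and 705 in control and 615, 614 and 646 CPM in KO libraries (log2 change -0.16 ± 0.027, adjusted p = 6.93e-07, or 0.287 with the RNA spread). Scg2, a secretogranin, was at 759, 750.4 and 751 in control and 667, 661 and 693 CPM in KO libraries (log2 change -0.16 ± 0.026, adjusted p = 4.44e-07, or 0.290 with the RNA spread). These falls were small and without overlap. Feedback inhibitors of MAP kinase signalling rose in 7 of 15 tested members and 1 fell (RNA spread 6 and 0; median level 19.6 CPM; 46.7% and 6.67% against 9.68% and 8.94%). Dusp1, a nuclear phosphatase that inactivates MAP kinases, was at 36.3, 33.4 and 36.6 in control and 124, 138 and 135 CPM in KO libraries (log2 change 1.91 ± 0.072, adjusted p = 9.34e-43). The ERK phosphatase Dusp6 was at 95.3, 84.5 and 95.6 in control and 199.8, 205 and 204 CPM in KO libraries (log2 change 1.15 ± 0.052, adjusted p = 1.87e-36).

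In RNA, which was described and not tested, 18 of the 19 immediate early transcription factors, 15 of the 25 effectors and 13 of the 15 feedback inhibitors had a log2 ratio above 0 between the group means, with medians of 1.19, 0.087 and 0.14. The summed RNA of the immediate early transcription factors was 521, 540.3, 539 and 817 CPM in the control mice 1, 3, 6 and 8 and 1252, 1248, 735 and 1225 CPM in the KO mice 2, 4, 5 and 7. So 1 control mouse lay above 1 KO mouse in RNA. The summed footprints were 1063, 1097 and 1036 CPM in control and 2504, 2586 and 2571 CPM in KO libraries, with no overlap; mice 5 to 8 had no footprint library. In RNA, Fos had a log2 ratio of 1.995, Arc of 1.73 and Egr1 of 1.19 between the group means. Cortex is a mixture of cells, so fewer cells of a type and less RNA or fewer ribosomes per cell cannot be told apart in these or any of the results below. How the mice were handled before tissue was taken is not in the labels, and its part in these values was not tested.

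In the protein synthesis machinery, calls were counted for ribosomal proteins and for the factors that load and supply the ribosome. Ribosomal proteins form the small and large subunits of the cytosolic ribosome, and are made in large amounts in growing cells. Of 86 genes for cytosolic ribosomal proteins and their copies in the table, 42 had enough footprints to be tested; 16 of these rose and 1 fell (RNA spread 12 and 1; median level 13.1 CPM; 38.1% and 2.38% against 9.68% and 8.94%), with a median log2 fold change of 0.16. The summed footprints of the list were 1575, 1542 and 1610.3 CPM in control and 1850.3, 1824 and 1847 CPM in KO libraries. Their RNA lay the other way in the group means: 41 of 42 had a log2 ratio below 0, with a median of -0.23. Rpl23 was at 7.88, 6.64 and 7.40 in control and 21.6, 16.3 and 18.5 CPM in KO libraries (log2 change 1.36 ± 0.17, adjusted p = 1.08e-10). Rps15 was at 30.3, 29.8 and 32.3 in control and 51.4, 51.1 and 62.4 CPM in KO libraries (log2 change 0.83 ± 0.093, adjusted p = 2.14e-12). Both groups were apart. Rps25 was the called fall, at 16.7, 13.99 and 15.8 in control and 10.1, 10.6 and 11.1 CPM in KO libraries (log2 change -0.54 ± 0.16, adjusted p = 0.00741), a call lost in DESeq2 (adjusted p = 0.0747). Rpl8, with the most counts, was at 229, 235 and 243 in control and 263, 260.3 and 256 CPM in KO libraries (log2 change 0.14 ± 0.039, adjusted p = 0.00421, or 0.397 with the RNA spread). Ribosomal protein genes have many processed copies, and how the authors counted reads shared with them is not given in the sources used here, so these levels are uncertain.

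Mitochondrial ribosomal proteins, which translate the few mRNAs of the mitochondrial genome, moved in 1 direction: 23 of 74 rose and none fell (RNA spread 7 and 0; median level 33.5 CPM; 31.1% and 0% against 9.68% and 8.94%), with a median log2 fold change of 0.17. Mrpl48 was at 9.31, 9.51 and 11.01 in control and 14.2, 17.8 and 16.0 CPM in KO libraries (log2 change 0.68 ± 0.16, adjusted p = 5.98e-04). Mrpl33 was at 27.7, 23.7 and 22.9 in control and 37.0, 42.6 and 32.8 CPM in KO libraries (log2 change 0.62 ± 0.11, adjusted p = 3.26e-06). Mrps14, with the most counts of the list, overlapped between genotypes at 74.0, 72.3 and 71.7 in control and 83.5, 68.3 and 83.8 CPM in KO libraries (log2 change 0.11 ± 0.071, adjusted p = 0.272). Their RNA had a median log2 ratio of -0.094, and 55 of 74 lay below 0.

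Among 54 initiation factors 10 rose and 6 fell (RNA spread 4 and 5; median level 51.1 CPM; 18.5% and 11.1% against 17.8% and 22.3%), with 6 rises left without control replicate 1. Their shares were near or below those of the class. Eif5b, the GTPase that joins the ribosomal subunits, was at 166, 155 and 154 in control and 107, 102 and 103 CPM in KO libraries (log2 change -0.60 ± 0.053, adjusted p = 3.13e-17). Eif4g1, the scaffold of the cap-binding complex, was at 517, 511 and 529.7 in control and 376, 386 and 365 CPM in KO libraries (log2 change -0.47 ± 0.031, adjusted p = 2.53e-24). Its relative Eif4g2 was at 240.3, 229.8 and 238 in control and 274, 291 and 283 CPM in KO libraries and rose (log2 change 0.26 ± 0.038, adjusted p = 1.56e-08, or 0.0607 with the RNA spread). The heme-regulated eIF2 kinase Eif2ak1 rose from 48.8 ± 4.98 to 64.2 ± 7.25 CPM (log2 change 0.40 ± 0.083, adjusted p = 6.06e-05). Elongation factors hardly moved: 1 of 15 rose and 1 fell (RNA spread 0 and 0; median level 53.7 CPM; 6.67% and 6.67% against 17.8% and 22.3%). The neuronal factor Eef1a2 was at 2524, 2605 and 2602 in control and 2602, 2618 and 2699 CPM in KO libraries, overlapping (log2 change 0.034 ± 0.019, adjusted p = 0.197), and Eef1a1, which is read from many near-identical copies, fell slightly (log2 change -0.17 ± 0.031, adjusted p = 1.27e-05, or 0.276 with the RNA spread). Of 40 aminoacyl-tRNA synthetases 4 rose and 4 fell (RNA spread 1 and 1; median level 57.7 CPM; 10% and 10% against 17.8% and 22.3%), with 2 rises without KO replicate 3 or control replicate 3. The falls included the fused synthetase Eprs (log2 change -0.36 ± 0.042, adjusted p = 6.48e-12) and Vars (log2 change -0.25 ± 0.076, adjusted p = 0.00768, or 0.142 with the RNA spread), and the rises included the mitochondrial enzymes Mars2 (log2 change 0.44 ± 0.15, adjusted p = 0.0199, or 0.0666 with the RNA spread) and Yars2 (log2 change 0.42 ± 0.13, adjusted p = 0.00944). The calls of Mars2, Yars2 and Vars were lost when single libraries were left out. Of 19 factors of ribosome quality control none rose and 4 fell (RNA spread 0 and 1; median level 62.4 CPM; 0% and 21.1% against 17.8% and 22.3%). Their share of falls was near that of the class. Smg1, the kinase of nonsense-mediated decay, fell from 72.9 ± 4.53 to 55.7 ± 4.49 CPM (log2 change -0.38 ± 0.076, adjusted p = 3.13e-05). Gcn1l1, which senses collided ribosomes, fell too (log2 change -0.25 ± 0.057, adjusted p = 2.89e-04, or 0.102 with the RNA spread).

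Among energy genes, subunits of the respiratory chain rose most often. Complex I takes electrons from NADH and is the largest complex of the chain. Of its 35 tested subunits 20 rose and 1 fell (RNA spread 6 and 0; median level 139.6 CPM; 57.1% and 2.86% against 17.8% and 22.3%), with a median log2 fold change of 0.13. Ndufa1 was at 115, 124 and 121 in control and 155, 154 and 168 CPM in KO libraries (log2 change 0.40 ± 0.052, adjusted p = 3.69e-10). Ndufs5 was at 28.4, 28.2 and 27.2 in control and 33.6, 36.1 and 40.2 CPM in KO libraries (log2 change 0.40 ± 0.10, adjusted p = 0.00198). Both were without overlap. Ndufb2 was the called fall, at 193, 204 and 191 in control and 184, 174 and 178 CPM in KO libraries (log2 change -0.14 ± 0.044, adjusted p = 0.0142, or 0.430 with the RNA spread), a call lost on plain library totals and when single libraries were left out. Ndufa4, with the most counts, overlapped at 499, 507 and 476 in control and 507, 498 and 480.1 CPM in KO libraries (log2 change 0.0046 ± 0.030, adjusted p = 0.932). Of 40 members of complexes II to IV and ATP synthase, 19 rose and 4 fell (RNA spread 7 and 0; median level 226 CPM; 47.5% and 10% against 24.4% and 38.8%). Without control replicate 3 there were 12 rises and 2 falls, and without control replicate 1, KO replicate 1 or KO replicate 2 also 2 falls. The cytochrome oxidase subunit Cox7b was at 138, 134 and 139.7 in control and 192, 192 and 178 CPM in KO libraries (log2 change 0.45 ± 0.048, adjusted p = 1.79e-13). Its partner Cox6c was at 133, 129 and 126 in control and 166, 179 and 168 CPM in KO libraries (log2 change 0.41 ± 0.050, adjusted p = 5.18e-11). Both rose without overlap. The catalytic-head subunit Atp5a1 of ATP synthase fell from 2646 ± 3.21 to 2359 ± 19.9 CPM (log2 change -0.17 ± 0.019, adjusted p = 3.97e-12, or 0.262 with the RNA spread). As for ribosomal proteins, RNA lay the other way: 30 of 35 complex I subunits and 31 of 40 of the others had an RNA log2 ratio below 0.

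In glycolysis and the TCA cycle rises and falls were nearly equal in number. Of 17 glycolysis genes 3 rose and 4 fell (RNA spread 0 and 0; median level 481 CPM; 17.6% and 23.5% against 24.4% and 38.8%). Of 24 genes of the TCA cycle and pyruvate entry 4 rose and 4 fell (RNA spread 0 and 0; median level 236 CPM; 16.7% and 16.7% against 24.4% and 38.8%), or 7 and 1 on plain library totals. Whichever library was left out, there were 1 or 2 falls, and there were 2 rises without KO replicate 2, KO replicate 3 or control replicate 3. The glucose transporter Slc2a1 rose from 161 ± 6.33 to 186 ± 2.65 CPM (log2 change 0.21 ± 0.046, adjusted p = 2.31e-04, or 0.188 with the RNA spread). The phosphofructokinase Pfkp fell from 568 ± 3.06 to 496 ± 4.88 CPM (log2 change -0.20 ± 0.029, adjusted p = 1.83e-08, or 0.175 with the RNA spread). The vacuolar ATPase, the proton pump of lysosomes and synaptic vesicles, had 7 rises and 3 falls in 19 members (RNA spread 1 and 0; median level 482 CPM; 36.8% and 15.8% against 24.4% and 38.8%). Its accessory subunit Atp6ap1 was at 662, 643 and 645 in control and 807, 816 and 821 CPM in KO libraries (log2 change 0.33 ± 0.026, adjusted p = 6.12e-20), apart in all libraries, and was the 1 call left with the spread of the RNA libraries. Lipid synthesis had 9 rises and 4 falls in 29 genes (RNA spread 2 and 0; median level 67.4 CPM; 31% and 13.8% against 17.8% and 22.3%). The stearoyl-CoA desaturase Scd1 was at 61.6, 67.6 and 65.5 in control and 91.7, 88.2 and 90.4 CPM in KO libraries (log2 change 0.47 ± 0.068, adjusted p = 1.73e-08). The fatty acid synthase Fasn fell from 741 ± 19.3 to 661 ± 9.93 CPM (log2 change -0.16 ± 0.027, adjusted p = 3.16e-07, or 0.273 with the RNA spread).

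In protein turnover, subunits of the proteasome mostly rose and large ubiquitin ligases mostly fell among those called. The proteasome degrades proteins tagged with ubiquitin. Of 36 subunits 13 rose and 2 fell (RNA spread 3 and 1; median level 149.9 CPM; 36.1% and 5.56% against 17.8% and 22.3%), with Psmb2 at 131, 125 and 131 in control and 156, 162 and 161 CPM in KO libraries (log2 change 0.31 ± 0.050, adjusted p = 2.93e-07). The regulatory subunit Psmd2 was at 257, 254 and 258 in control and 206, 212 and 224 CPM in KO libraries (log2 change -0.26 ± 0.040, adjusted p = 1.13e-07, or 0.0670 with the RNA spread), 1 of the 2 falls. Large E3 ligases, the enzymes that choose what is tagged, fell in 13 of 27 and rose in 2 (RNA spread 8 and 0; median level 184 CPM; 48.1% and 7.41% against 22.3% and 17.8%). Trip12 was at 398, 421 and 418 in control and 313, 219 and 314 CPM in KO libraries (log2 change -0.56 ± 0.047, adjusted p = 1.16e-18), with the KO library of mouse 10 well below the other KO libraries, and Birc6 at 400.1, 406 and 422 in control and 319, 290.4 and 294 CPM in KO libraries (log2 change -0.45 ± 0.035, adjusted p = 2.54e-20). Neither gene overlapped between genotypes. Heat shock proteins and chaperones, which fold client proteins, had 12 rises and 8 falls in 45 members (RNA spread 3 and 0; median level 257 CPM; 26.7% and 17.8% against 24.4% and 38.8%). The co-chaperone Dnajb1 rose from 92.7 ± 3.63 to 130.0 ± 5.69 CPM (log2 change 0.49 ± 0.058, adjusted p = 1.79e-11). Dnaja1 rose from 19.6 ± 1.61 to 27.6 ± 2.98 CPM (log2 change 0.50 ± 0.12, adjusted p = 8.88e-04). The stress-induced Hsp90aa1 fell from 293 ± 3.24 to 245 ± 15.4 CPM (log2 change -0.26 ± 0.038, adjusted p = 2.01e-08, or 0.0613 with the RNA spread).

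Of the 43 functional lists, the one with the highest share of falls was that of spectrins, ankyrins and giant linkers, very long proteins that tie membranes, organelles and filaments together. Of 32 tested members 31 fell (96.9%) and 1 rose (3.12%), with a median log2 fold change of -0.39 at a median level of 186.5 CPM. Among all genes from 50 to 200 CPM 22.3% were called lower and 17.8% higher. With the spread of the RNA libraries 20 fell and none rose, and in the all-library fit 21 fell. Summed footprints were 15075, 15142 and 15403 CPM in control and 12047, 12109 and 12155 CPM in KO libraries. Dst, a linker of intermediate filaments, actin and microtubules, was at 504, 516 and 533 in control and 321, 298 and 303 CPM in KO libraries (log2 change -0.76 ± 0.033, adjusted p = 8.48e-38). Clathrin heavy chain, Cltc, fell less, at 3722, 3616 and 3693 in control and 3217, 3221 and 3208 CPM in KO libraries (log2 change -0.19 ± 0.018, adjusted p = 3.41e-16, or 0.168 with the RNA spread). Both were apart between genotypes. Dystrophin, Dmd, was the rise, at 79.8, 68.9 and 77.0 in control and 96.3, 82.7 and 82.2 CPM in KO libraries (log2 change 0.21 ± 0.069, adjusted p = 0.0135, or 0.218 with the RNA spread), and its call was lost without control replicate 2 or KO replicate 1. RNA of the list had a median log2 ratio of 0.047, with 22 of 32 members above 0, or -0.053 over mice 1 to 4 alone, and Dst had RNA log2 ratios of 0.044 and -0.11.

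Motors and microtubule proteins, also of the cytoskeleton, had smaller shares of called members than giant linkers. Of 96 kinesin, dynein and myosin genes 67 were tested; 22 fell and 1 rose (RNA spread 12 and 0; median level 58.9 CPM; 32.8% and 1.49% against 22.3% and 17.8%). Kif1a, which carries synaptic vesicle precursors, was at 1745, 1777 and 1785 in control and 1465, 1444 and 1482 CPM in KO libraries (log2 change -0.27 ± 0.021, adjusted p = 9.54e-21). Myo5b, a myosin of recycling endosomes, was at 34.6, 42.3 and 39.6 in control and 28.1, 22.5 and 26.0 CPM in KO libraries (log2 change -0.62 ± 0.11, adjusted p = 1.42e-06). The rise was the kinesin light chain Klc2 (log2 change 0.16 ± 0.044, adjusted p = 0.00438, or 0.346 with the RNA spread). Of 32 microtubule-associated proteins 14 fell and 3 rose (RNA spread 7 and 1; median level 230.0 CPM; 43.8% and 9.38% against 38.8% and 24.4%). Map1a was at 2989, 3013 and 3041 in control and 1950.4, 1999 and 1978 CPM in KO libraries (log2 change -0.61 ± 0.019, adjusted p = 2.30e-49). Map1b, whose mRNA is a classical FMRP target, was at 3259, 3302 and 3351 in control and 2279, 2289 and 2307 CPM in KO libraries (log2 change -0.53 ± 0.019, adjusted p = 6.33e-45). Neither gene overlapped, and their RNA log2 ratios were -0.017 and -0.13. The end-binding proteins Mapre2 and Mapre3 had log2 fold changes of 0.092 ± 0.035 and 0.086 ± 0.033, with calls that were lost when single libraries were left out. Of 14 tubulins 1 rose and 4 fell (RNA spread 0 and 0; median level 144 CPM; 7.14% and 28.6% against 17.8% and 22.3%). Tubb3 was at 881, 879 and 883 in control and 779, 750.1 and 797 CPM in KO libraries (log2 change -0.18 ± 0.025, adjusted p = 2.73e-09, or 0.206 with the RNA spread), while Tubb4a overlapped (log2 change -0.0035 ± 0.020, adjusted p = 0.925). Tubulin genes are alike in sequence, so their counts are uncertain.

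**Figure D2:**
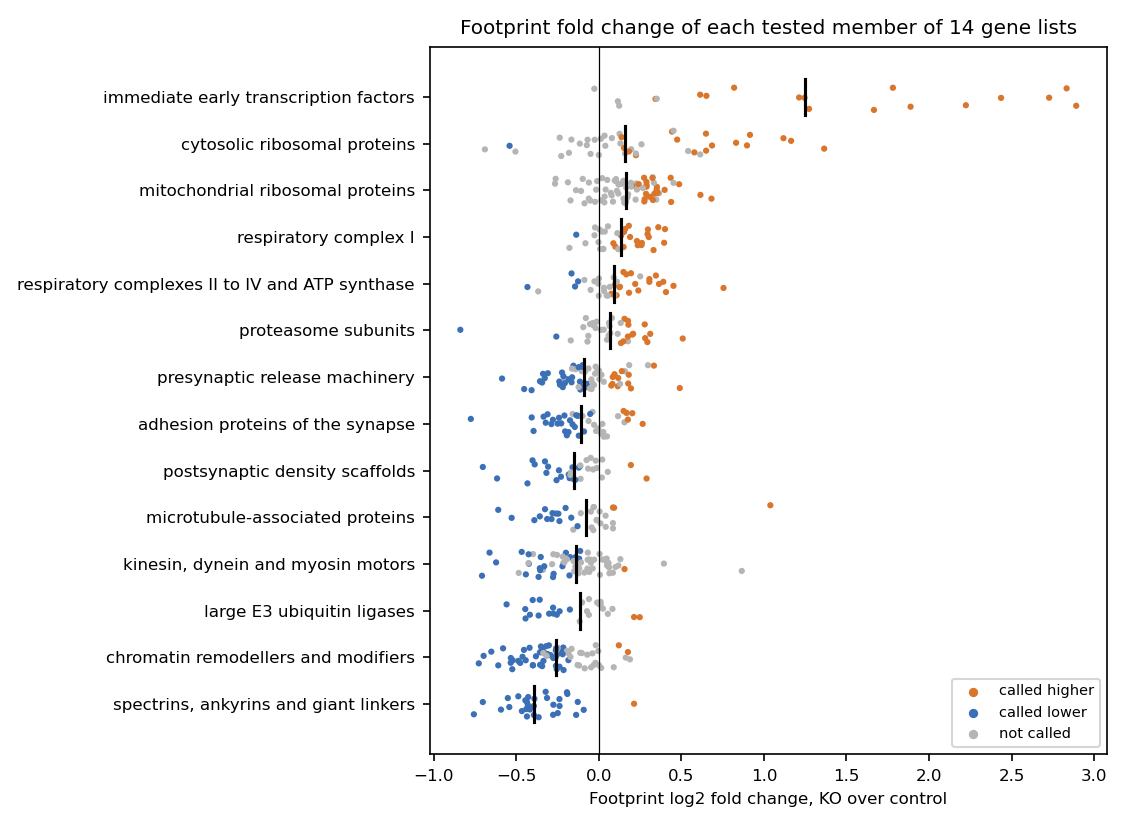
Footprint log2 fold change (KO over control, horizontal axis) of each tested member of 14 gene lists, with members called higher, called lower and not called in separate colours and the list median as a black bar. Medians run from -0.39 for giant linkers through 0.13 for complex I to 1.25 for immediate early transcription factors.

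In the nucleus, the called genes for proteins that remodel and mark chromatin were nearly all lower. Of 74 tested chromatin remodellers and modifiers 46 fell (62.2%) and 2 rose (2.7%), with a median log2 fold change of -0.26 at a median level of 81.4 CPM. Among all genes from 50 to 200 CPM 22.3% were called lower and 17.8% higher. With the spread of the RNA libraries 26 fell and none rose, and with all libraries in 1 fit 37 fell. Mll2, a histone H3 lysine methyltransferase, was at 179.6, 172 and 179.6 in control and 100.8, 111 and 109 CPM in KO libraries (log2 change -0.73 ± 0.052, adjusted p = 1.21e-22). Its relative Mll3 was at 106, 97.6 and 107 in control and 59.1, 65.3 and 66.7 CPM in KO libraries (log2 change -0.70 ± 0.067, adjusted p = 2.20e-15). Chd4, the helicase of the NuRD complex with the most counts, was at 379, 389 and 414 in control and 315, 318 and 323 CPM in KO libraries (log2 change -0.31 ± 0.034, adjusted p = 1.01e-12). No library of these 3 genes overlapped. The rises were the histone deacetylases Hdac2 and Hdac3, with log2 fold changes of 0.12 ± 0.046 and 0.18 ± 0.066, and each lost its call in 5 of the 6 fits that left out a library. RNA of the list had a median log2 ratio of 0.025, and 43 of 74 members lay above 0.

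Other nuclear classes were mixed. Of 80 splicing factors and hnRNPs 30 fell and 13 rose (RNA spread 15 and 7; median level 61.0 CPM; 37.5% and 16.2% against 22.3% and 17.8%), with 8 rises without control replicate 3. Srrm2, a scaffold of nuclear speckles, was at 420.4, 416 and 411 in control and 253, 251 and 241 CPM in KO libraries (log2 change -0.74 ± 0.035, adjusted p = 2.77e-35), clearly apart, and Hnrnpu fell from 1096 ± 18.8 to 948 ± 9.73 CPM (log2 change -0.21 ± 0.024, adjusted p = 2.78e-12, or 0.134 with the RNA spread). The Sm-like protein Lsm1 rose from 10.6 ± 0.497 to 15.9 ± 1.79 CPM (log2 change 0.57 ± 0.16, adjusted p = 0.00437). Hnrnpa1 has many processed copies, and its fall (log2 change -0.64 ± 0.16, adjusted p = 0.00117) is uncertain. Mediator and RNA polymerase II had 8 rises and 3 falls in 40 members (RNA spread 3 and 1; median level 34.3 CPM; 20% and 7.5% against 9.68% and 8.94%). The rises came to 4 without control replicate 1 and to 5 without KO replicate 1 or KO replicate 3. Med31, a subunit of the Mediator middle module, was at 16.96, 13.99 and 16.7 in control and 27.8, 30.1 and 28.7 CPM in KO libraries (log2 change 0.87 ± 0.13, adjusted p = 1.53e-08). The kinase-module subunit Med13l was at 59.2, 58.6 and 53.5 in control and 47.3, 43.3 and 36.8 CPM in KO libraries (log2 change -0.42 ± 0.086, adjusted p = 4.81e-05). Both were apart between genotypes, in opposite directions. Of 48 tested histone genes, out of 79 in the table, 8 rose and 6 fell (RNA spread 5 and 3; median level 10.2 CPM; 16.7% and 12.5% against 9.68% and 8.94%), with 2 falls without KO replicate 1. A pair of histone H4 genes went opposite ways: Hist1h4h was at 23.4, 24.2 and 24.9 in control and 35.3, 36.1 and 50.4 CPM in KO libraries (log2 change 0.74 ± 0.11, adjusted p = 3.38e-08). Hist4h4 was at 74.0, 83.9 and 79.8 in control and 55.9, 55.8 and 58.5 CPM in KO libraries (log2 change -0.49 ± 0.073, adjusted p = 3.65e-08); histone genes are near-identical, so reads may be split between them. Zinc finger proteins with a Zfp number, 287 of 354 tested, had 18 rises and 24 falls (RNA spread 12 and 16; median level 10.9 CPM; 6.27% and 8.36% against 9.68% and 8.94%). Without KO replicate 1 there were 10 rises. Zfp608 was at 32.5, 28.9 and 31.0 in control and 14.2, 17.8 and 16.7 CPM in KO libraries (log2 change -0.91 ± 0.12, adjusted p = 2.74e-09). Zfp462 was at 57.3, 62.1 and 62.4 in control and 35.5, 31.4 and 31.9 CPM in KO libraries (log2 change -0.89 ± 0.088, adjusted p = 1.09e-14).

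At the synapse, scaffolds and adhesion proteins fell more often than they rose, while receptors were mixed. Of 33 postsynaptic density scaffolds, which anchor receptors to the cytoskeleton, 18 fell and 2 rose (RNA spread 6 and 1; median level 126 CPM; 54.5% and 6.06% against 22.3% and 17.8%), with a median log2 fold change of -0.15. Shank2 was at 108, 111 and 112 in control and 73.0, 70.0 and 73.2 CPM in KO libraries (log2 change -0.62 ± 0.063, adjusted p = 4.00e-14). Cnksr2, which links Ras signalling to the density, was at 678, 678 and 677 in control and 842, 833 and 809 CPM in KO libraries and rose (log2 change 0.29 ± 0.026, adjusted p = 4.21e-17). Both genes were apart. Homer1, whose short form is an immediate early product, rose from 104 ± 6.49 to 119.9 ± 8.05 CPM (log2 change 0.19 ± 0.058, adjusted p = 0.00754, or 0.235 with the RNA spread), a call lost without KO replicate 2 or control replicate 1. Of 44 adhesion proteins 23 fell and 5 rose (RNA spread 7 and 0; median level 165 CPM; 52.3% and 11.4% against 22.3% and 17.8%), with 3 rises without control replicate 3, KO replicate 1 or KO replicate 2. Igsf9b, an adhesion protein of inhibitory synapses, was at 25.1, 20.6 and 21.7 in control and 11.8, 14.8 and 12.2 CPM in KO libraries (log2 change -0.78 ± 0.14, adjusted p = 6.73e-06). The receptor phosphatase Ptprf was at 151, 155 and 161 in control and 111, 129 and 112 CPM in KO libraries (log2 change -0.41 ± 0.053, adjusted p = 6.36e-10). Lrrc4c, the netrin-G1 ligand, rose from 48.5 ± 0.139 to 58.3 ± 4.12 CPM (log2 change 0.27 ± 0.081, adjusted p = 0.00879, or 0.132 with the RNA spread), a call lost without KO replicate 1.

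The presynaptic release machinery held 28 falls and 12 rises in 66 members (RNA spread 6 and 1; median level 260.4 CPM; 42.4% and 18.2% against 38.8% and 24.4%). Without KO replicate 3 there were 7 rises. The active zone scaffold Erc1 fell and was at 98.9, 94.3 and 90.5 in control and 65.8, 66.2 and 74.6 CPM in KO libraries (log2 change -0.45 ± 0.067, adjusted p = 3.53e-08). Ppfia1, another such scaffold, was at 24.6, 26.4 and 23.2 in control and 15.1, 17.2 and 16.9 CPM in KO libraries (log2 change -0.59 ± 0.13, adjusted p = 1.97e-04). The SNARE Snap25 was at 3455, 3343 and 3439 in control and 3859.8, 3811 and 3932 CPM in KO libraries (log2 change 0.18 ± 0.018, adjusted p = 1.09e-14, or 0.208 with the RNA spread). Napa, the adaptor that recycles SNAREs, was at 263, 263 and 269 in control and 365, 382 and 371 CPM in KO libraries (log2 change 0.49 ± 0.035, adjusted p = 1.63e-22). All 4 were apart between genotypes.

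Ionotropic glutamate receptors, the fast excitatory channels, had 1 rise and 5 falls in 17 members (RNA spread 0 and 2; median level 68.9 CPM; 5.88% and 29.4% against 17.8% and 22.3%). The obligatory NMDA receptor subunit Grin1 rose by little, from 1389.6 ± 38.2 to 1452 ± 20.3 CPM (log2 change 0.062 ± 0.022, adjusted p = 0.0271, or 0.740 with the RNA spread), a call lost when single libraries were left out, and Grin2d fell from 20.1 ± 1.95 to 13.7 ± 1.58 CPM (log2 change -0.56 ± 0.14, adjusted p = 0.00147). Metabotropic glutamate receptors, which act through G proteins and are central to work on fragile X syndrome, had 1 rise and 2 falls in 7 (RNA spread 0 and 0; median level 93.5 CPM; 14.3% and 28.6% against 17.8% and 22.3%). Grm5 was at 252, 273 and 272 in control and 240.1, 234 and 245 CPM in KO libraries (log2 change -0.16 ± 0.039, adjusted p = 0.00114, or 0.355 with the RNA spread). Grm7 was at 123.0, 125 and 129 in control and 114, 108 and 109.6 CPM in KO libraries (log2 change -0.19 ± 0.055, adjusted p = 0.00616, or 0.269 with the RNA spread). Grm3 was at 236, 246 and 224 in control and 282, 284 and 284 CPM in KO libraries (log2 change 0.27 ± 0.039, adjusted p = 1.37e-08, or 0.0548 with the RNA spread). These 3 were apart between genotypes, Grm3 upward. Grm2, Grm4 and Grm8 did not pass, with log2 fold changes of -0.090 ± 0.062, -0.080 ± 0.14 and -0.032 ± 0.12.

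GABA receptors, the inhibitory channels and their G-protein-coupled relatives, held 1 of the largest falls of all. Gabra2, an alpha subunit of GABA-A receptors, was at 241, 246 and 235 in control and 74.7, 70.0 and 73.7 CPM in KO libraries (log2 change -1.73 ± 0.052, adjusted p = 1.05e-50), so that KO libraries held less than any control library by a wide margin. Its RNA was lower too, at 129 ± 33.9 CPM in control and 53.1 ± 2.65 CPM in KO mice (SD, n = 4). Of the 16 tested receptors 5 rose and 2 fell (RNA spread 1 and 1; median level 134 CPM; 31.2% and 12.5% against 17.8% and 22.3%), and without control replicate 2 there were 3 rises.

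Among channels and pumps 1 gene stood out. Kcnh3, a brain voltage-gated potassium channel of the ether-a-go-go family, was at 56.6, 93.3 and 104.6 in control and 231, 246 and 252 CPM in KO libraries (log2 change 1.48 ± 0.065, adjusted p = 1.44e-37). The control library of mouse 1 lay well below the other controls, yet all KO libraries were above all control libraries; the log2 fold change was 1.30 to 1.66 when single libraries were left out. Its RNA log2 ratio was 0.16, with 206 ± 16.7 CPM in control and 229 ± 4.48 CPM in KO mice (SD, n = 4). Of 69 potassium channel genes 13 rose and 6 fell (RNA spread 4 and 4; median level 35.3 CPM; 18.8% and 8.7% against 9.68% and 8.94%). Kcnip4, an accessory subunit of A-type channels, was at 82.2, 85.9 and 86.0 in control and 118, 121 and 120.4 CPM in KO libraries (log2 change 0.50 ± 0.059, adjusted p = 2.91e-11). Kcnh2 was at 31.0, 28.9 and 30.8 in control and 22.8, 22.9 and 21.9 CPM in KO libraries (log2 change -0.42 ± 0.11, adjusted p = 0.00279). Sodium, calcium and HCN channels had 4 rises and 10 falls in 36 (RNA spread 1 and 4; median level 83.4 CPM; 11.1% and 27.8% against 17.8% and 22.3%), with 2 rises without control replicate 2. The sodium channel beta subunit Scn4b was at 123.5, 114 and 118 in control and 161, 154 and 155 CPM in KO libraries (log2 change 0.41 ± 0.052, adjusted p = 1.90e-10). The T-type calcium channel Cacna1h was at 43.2, 45.6 and 45.2 in control and 31.9, 32.9 and 36.8 CPM in KO libraries (log2 change -0.40 ± 0.094, adjusted p = 4.77e-04). ATP-driven ion pumps fell in 11 of 26 and rose in 2 (RNA spread 2 and 2; median level 153 CPM; 42.3% and 7.69% against 22.3% and 17.8%). With all libraries in 1 fit 3 pumps fell, and on plain library totals 7 fell. The calcium pump Atp2b4 fell from 401 ± 14.2 to 288 ± 8.24 CPM (log2 change -0.48 ± 0.035, adjusted p = 4.02e-22), while the beta subunit Atp1b3 rose (log2 change 0.37 ± 0.10, adjusted p = 0.00186).

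**Figure D3:**
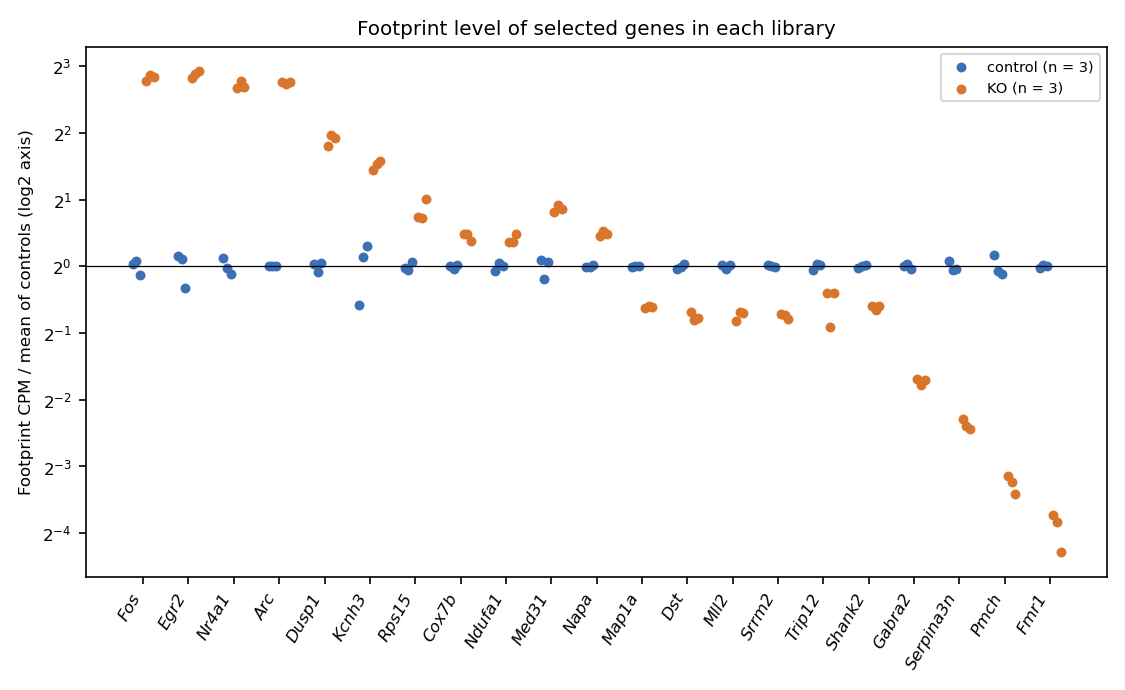
Footprint CPM of 21 genes in each of the 6 libraries, divided by the mean of the 3 control libraries (log2 axis; control points on the left and KO points on the right of each gene). The KO points of Fos, Egr2, Nr4a1, Arc and Dusp1 lie above all control points and those of Map1a, Dst, Gabra2 and Fmr1 below; the controls of Kcnh3 are spread from 56.6 to 104.6 CPM.

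Signalling classes were smaller in effect. In the mTOR pathway, which couples nutrients and growth factors to protein synthesis, 6 of 40 genes rose and 2 fell (RNA spread 2 and 0; median level 50.2 CPM; 15% and 5% against 17.8% and 22.3%). Both shares were below those of the class. The kinase Mtor itself was at 231, 235 and 223 in control and 192, 203 and 184 CPM in KO libraries (log2 change -0.25 ± 0.042, adjusted p = 1.28e-06, or 0.0816 with the RNA spread). The GTPase Rragc, which brings it to the lysosome, was at 54.5, 51.3 and 51.8 in control and 68.9, 75.9 and 66.9 CPM in KO libraries (log2 change 0.43 ± 0.076, adjusted p = 2.74e-06). Both were apart, in opposite directions. Exchange factors and GTPase activating proteins of small GTPases, which shape spines, fell in 27 of 81 and rose in 6 (RNA spread 8 and 2; median level 57.3 CPM; 33.3% and 7.41% against 22.3% and 17.8%). Without KO replicate 3 only 3 rose. Dock6 fell from 17.4 ± 1.39 to 10.5 ± 2.26 CPM (log2 change -0.72 ± 0.16, adjusted p = 2.01e-04) and Rapgef5 rose from 99.7 ± 3.45 to 125 ± 3.14 CPM (log2 change 0.32 ± 0.057, adjusted p = 2.36e-06). Phosphodiesterases and adenylyl cyclases, which set cyclic nucleotide levels, had 6 rises and 2 falls in 27 (RNA spread 2 and 1; median level 42.0 CPM; 22.2% and 7.41% against 9.68% and 8.94%), with Pde1a at 235, 219 and 227 in control and 278, 278 and 289.9 CPM in KO libraries (log2 change 0.32 ± 0.039, adjusted p = 5.89e-11). Of 9 diacylglycerol kinases 1 rose and 2 fell (RNA spread 0 and 1; median level 86.3 CPM; 11.1% and 22.2% against 17.8% and 22.3%). Dgkg was at 88.6, 81.8 and 86.0 in control and 62.2, 60.2 and 61.9 CPM in KO libraries (log2 change -0.47 ± 0.070, adjusted p = 2.74e-08), and Dgkb also fell (log2 change -0.17 ± 0.041, adjusted p = 6.38e-04, or 0.301 with the RNA spread) while Dgke rose (log2 change 0.21 ± 0.065, adjusted p = 0.0110, or 0.239 with the RNA spread), a call lost without control replicate 2 or KO replicate 2. CaM kinases had 1 rise and 4 falls in 14 (RNA spread 0 and 2; median level 200.3 CPM; 7.14% and 28.6% against 24.4% and 38.8%), again below the class. Camk2a, the kinase that dominates the postsynaptic density, was at 3135, 3239 and 3212 in control and 2841, 2901 and 2934 CPM in KO libraries (log2 change -0.14 ± 0.019, adjusted p = 3.30e-10, or 0.344 with the RNA spread), a small fall without overlap that was not called with all libraries in 1 fit either. Its RNA had a log2 ratio of 0.75, from 467 ± 62.0 CPM in controls to 785 ± 111 CPM in KO animals (SD, n = 4).

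The known targets of FMRP were read as 1 list, written from general knowledge of genes described as FMRP-bound mRNAs, and it is not complete. Of 204 tested members 131 fell (64.2%) and 13 rose (6.37%), with a median log2 fold change of -0.19. Their median level was 241.9 CPM, and among all genes from 200 CPM 38.8% fell and 24.4% rose. With the spread of the RNA libraries 68 fell and 1 rose, and with all 14 libraries in 1 fit 97 fell and 5 rose. The list crosses the classes above: 121 of its members also belong to another functional list, of which 84 fell, and 83 belong to no other, of which 47 fell. Among giant linkers all 9 members in the FMRP list fell, with a median of -0.42, and of the 23 outside it 22 fell, with a median of -0.39. Chromatin genes in the FMRP list fell in 17 of 19 with a median of -0.36, and those outside it in 29 of 55 with a median of -0.25. Arc and Eif4g2 were the largest rises. RNA of the list had a median log2 ratio of 0.058, and 140 of 204 members lay above 0.

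In the family and partners of FMRP, 1 of 9 tested members rose and 2 fell, Fmr1 itself included (RNA spread 0 and 1; median level 114 CPM; 11.1% and 22.2% against 17.8% and 22.3%). The paralog Fxr1 was at 126, 129 and 123.5 in control and 138, 135 and 142 CPM in KO libraries (log2 change 0.13 ± 0.052, adjusted p = 0.0476, or 0.453 with the RNA spread), a call lost in 5 of the 6 fits that left out a library. Caprin1, a granule protein that binds FMRP, was at 616, 610.0 and 600.4 in control and 507, 558 and 524 CPM in KO libraries and fell (log2 change -0.20 ± 0.029, adjusted p = 2.49e-08, or 0.162 with the RNA spread). Cyfip2, which links FMRP to actin regulators, overlapped at 644, 654 and 636 in control and 671, 640.0 and 648 CPM in KO libraries (log2 change 0.017 ± 0.027, adjusted p = 0.705). The other tested members, Fxr2, Cyfip1, Nufip1, Nufip2 and Tdrd3, were not called, and Mov10 had too few footprints to be tested.

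Markers of cell types and of other brain regions were read as sets. Summed markers of excitatory neurons were 6202 to 6364 CPM in control and 6071 to 6343 CPM in KO libraries, and those of inhibitory neurons were 2404 to 2478 CPM in control and 2589.8 to 2669.6 CPM in KO libraries. The excitatory list had 4 rises and 3 falls in 15 (RNA spread 1 and 1; median level 77.8 CPM; 26.7% and 20% against 17.8% and 22.3%), with 2 rises without KO replicate 3. Lmo4, a layer marker, was at 198, 201 and 216 in control and 279.9, 287 and 289 CPM in KO libraries and rose (log2 change 0.47 ± 0.040, adjusted p = 1.52e-18). Of the interneuron peptides, Npy was at 176, 195 and 182 in control and 256, 246 and 263 CPM in KO libraries (log2 change 0.46 ± 0.042, adjusted p = 1.09e-16). Cck was at 350.4, 376 and 344 in control and 438, 462 and 469.9 CPM in KO libraries (log2 change 0.36 ± 0.033, adjusted p = 4.27e-16). The inhibitory neuron list had 5 rises and 3 falls in 13 (RNA spread 3 and 0; median level 108 CPM; 38.5% and 23.1% against 17.8% and 22.3%). Among the falls were the calcium-binding protein Calb2 (log2 change -0.29 ± 0.074, adjusted p = 0.00128, or 0.0694 with the RNA spread), a call lost without KO replicate 1, and the neuregulin receptor Erbb4 (log2 change -0.23 ± 0.060, adjusted p = 0.00134, or 0.133 with the RNA spread). The enzyme Gad1 overlapped between genotypes (log2 change 0.022 ± 0.029, adjusted p = 0.632). Astrocyte markers had 4 rises and 5 falls in 17 (RNA spread 0 and 2; median level 303 CPM; 23.5% and 29.4% against 24.4% and 38.8%), or 2 and 3 without KO replicate 2, with Gfap from 198 ± 6.70 to 156 ± 5.96 CPM (log2 change -0.34 ± 0.046, adjusted p = 1.47e-09) and Glul from 797 ± 20.2 to 885 ± 18.3 CPM (log2 change 0.15 ± 0.025, adjusted p = 6.11e-07, or 0.327 with the RNA spread). Microglia markers had 3 rises and 1 fall in 15 (RNA spread 2 and 1; median level 51.7 CPM; 20% and 6.67% against 17.8% and 22.3%), and endothelial and mural markers 4 rises and 3 falls in 20 (RNA spread 2 and 2; median level 40.7 CPM; 20% and 15% against 9.68% and 8.94%). Myelin markers had 4 rises and 7 falls in 16 (RNA spread 1 and 2; median level 179 CPM; 25% and 43.8% against 17.8% and 22.3%). Their rises came to 1 without KO replicate 3 and to 2 without KO replicate 2, control replicate 1 or control replicate 3. Choroid plexus markers, of which 9 of 16 were tested, summed to 38.01 to 41.6 CPM in control and 34.6 to 41.6 CPM in KO libraries, and 0 rose and 1 fell (RNA spread 0 and 1; median level 3.05 CPM; 0% and 11.1% against 4.29% and 4.26%). Their RNA had a median log2 ratio of -0.45, with 7 of 9 below 0, or -0.37 over mice 1 to 4. Of the red blood cell genes, Hba-a1, Hba-a2, Hbb-b1 and Hbb-b2 are listed at 0 in every footprint library, and the haem synthesis enzyme Alas2 was at 6.69, 7.17 and 7.22 in control and 7.92, 7.21 and 4.97 CPM in KO libraries (log2 change -0.077 ± 0.22, adjusted p = 0.844). A listed 0 need not mean absence, since 3 genes for ribosomal proteins and 3 for initiation factors are also listed at 0 in every footprint library.

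The largest log2 ratios of summed markers were in hypothalamic peptides (-1.08) and oligodendrocyte precursors (-0.39). The 5 markers of oligodendrocyte precursors summed to 401, 409 and 413 CPM in control and 311, 319 and 303 CPM in KO libraries. Pdgfra, the receptor that defines these cells, was at 159, 155 and 153 in control and 112, 127 and 114 CPM in KO libraries (log2 change -0.39 ± 0.053, adjusted p = 1.19e-09). Cspg4 was at 80.5, 91.3 and 86.7 in control and 63.6, 66.8 and 63.9 CPM in KO libraries (log2 change -0.42 ± 0.069, adjusted p = 6.92e-07). Gpr17 was at 145, 143 and 154 in control and 116, 106 and 105.3 CPM in KO libraries (log2 change -0.44 ± 0.054, adjusted p = 8.27e-11). The 3 fell without overlap, and none of the 5 rose (RNA spread 3 and 0; median level 75.5 CPM; 60% and 0% against 22.3% and 17.8%); C1ql1 and Neu4 overlapped. Peptides of the hypothalamus, a region outside the cortex, had 15 markers with footprints. They summed to 159.8 to 169 CPM in control and 72.7 to 80.4 CPM in KO libraries. Of these 8 were tested, and 1 rose and 7 fell (RNA spread 1 and 6; median level 15.7 CPM; 12.5% and 87.5% against 9.68% and 8.94%), with 4 falls in DESeq2. Pmch, the precursor of melanin-concentrating hormone, was at 37.98, 32.3 and 31.1 in control and 3.84, 3.61 and 3.16 CPM in KO libraries (log2 change -3.24 ± 0.17, adjusted p = 1.23e-30). Hcrt, the orexin precursor, was at 6.93, 12.02 and 9.12 in control and 0.960, 1.70 and 2.03 CPM in KO libraries (log2 change -2.57 ± 0.30, adjusted p = 9.95e-12). Their RNA was lower as well, with the list at 93.6, 96.9, 75.8 and 63.3 CPM in the control mice 1, 3, 6 and 8 and 39.8, 38.4, 33.9 and 38.8 CPM in the KO mice 2, 4, 5 and 7. Avp, the vasopressin precursor, fell from 33.1 ± 1.24 to 14.8 ± 1.47 CPM (log2 change -1.15 ± 0.12, adjusted p = 3.76e-13), and Pomc, the precursor of melanocortins, from 3.03 ± 0.952 to 0.994 ± 0.410 CPM (log2 change -1.63 ± 0.45, adjusted p = 0.00325), a call lost without control replicate 2. Gal was the rise of the list. The calls of Gal and of Oxt, 1 of the falls, were each lost in 4 of the 6 fits that left out a library. Striatal markers rose in 5 of 14 and fell in 1 (RNA spread 2 and 0; median level 49.6 CPM; 35.7% and 7.14% against 9.68% and 8.94%), with 2 rises without KO replicate 3 and 3 without control replicate 3. They summed to 1479 to 1520.0 CPM in control and 1628 to 1690.4 CPM in KO libraries, and markers of thalamus and habenula to 223 to 227 CPM in control and 198 to 205 CPM in KO libraries. The summed markers of striatum, thalamus and habenula, inhibitory neurons, microglia and myelin did not overlap between genotypes either, with log2 ratios of 0.14, -0.17, 0.11, 0.073 and -0.033. Penk was at 555, 541 and 565 in control and 688, 666 and 702 CPM in KO libraries (log2 change 0.31 ± 0.028, adjusted p = 9.86e-17). What differences in the cells or regions taken contribute to the other results was not tested.

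Some large changes were in genes of no list. Wdfy1, an endosomal protein that binds phosphatidylinositol 3-phosphate, was at 32.2, 39.6 and 31.3 in control and 3.60, 2.12 and 2.94 CPM in KO libraries (log2 change -3.58 ± 0.19, adjusted p = 4.64e-32), the largest fall after Fmr1. Serpina3n, a secreted protease inhibitor made by reactive astrocytes, was at 65.0, 59.2 and 59.3 in control and 12.5, 11.7 and 11.3 CPM in KO libraries (log2 change -2.36 ± 0.11, adjusted p = 1.25e-34). Adck3, a mitochondrial protein needed for coenzyme Q synthesis, was at 2.87, 2.33 and 3.27 in control and 15.8, 17.2 and 15.8 CPM in KO libraries and rose (log2 change 2.52 ± 0.22, adjusted p = 6.76e-18). In each of the 3 genes the libraries of the genotypes were far apart. Col9a2, a collagen chain, fell from 12.8 ± 1.72 to 5.496 ± 0.238 CPM (log2 change -1.20 ± 0.20, adjusted p = 6.92e-07), Heatr8 from 10.8 ± 2.43 to 1.98 ± 0.597 CPM (log2 change -2.48 ± 0.27, adjusted p = 9.05e-13) and the axonemal dynein Dnahc6 from 8.80 ± 1.72 to 3.32 ± 0.890 CPM (log2 change -1.40 ± 0.25, adjusted p = 5.52e-06). RNA log2 ratios were -1.46 for Wdfy1, -2.48 for Serpina3n, 0.97 for Adck3, -2.21 for Heatr8, -1.27 for Col9a2 and -0.47 for Dnahc6. The RNA of Dnahc6 and Adck3 overlapped between genotypes, and over mice 1 to 4 the RNA log2 ratio of Adck3 was 1.89.

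Set beside RNA, the classes fell into groups, given here as a description with no test. In immediate early transcription factors and hypothalamic peptides the medians of footprints and RNA had the same sign: 1.25 and 1.19 for the first and -1.02 and -0.82 for the second. In ribosomal proteins and respiratory subunits the signs were opposite, with footprints above 0 and RNA below. In giant linkers, chromatin genes and FMRP targets footprints were below 0 and the RNA median over 8 libraries slightly above it. Over the 4 mice with both footprint and RNA libraries (mice 1 to 4), the RNA medians were 1.48 for immediate early transcription factors, -0.93 for hypothalamic peptides, -0.053 for giant linkers, -0.0089 for chromatin genes and -0.15 for complex I.

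**Figure D4:**
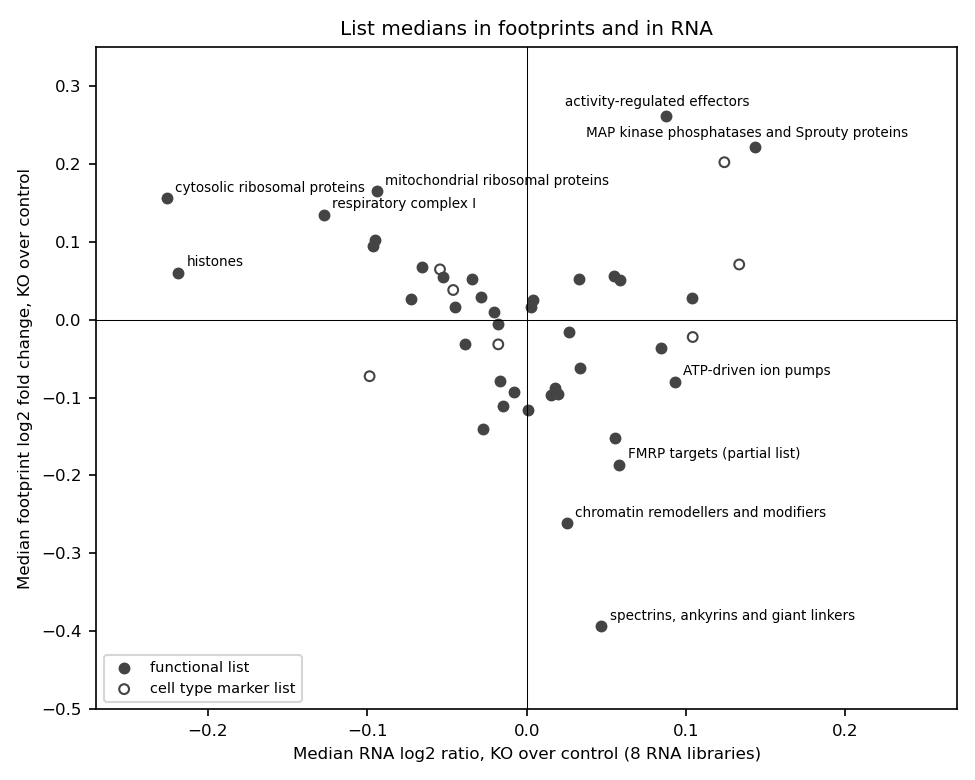
Median footprint log2 fold change (vertical axis) against median RNA log2 ratio (horizontal axis), KO over control, for 46 gene lists with at least 10 tested members, with cell type marker lists as open circles. Giant linkers lie lowest, at 0.047 in RNA and -0.39 in footprints, and cytosolic ribosomal proteins lie at -0.23 and 0.16; immediate early transcription factors lie outside the axes, at 1.19 and 1.25.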

How the data were processed

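The deposited table held 1 whole-number read count per gene and library for 23412 genes, of which 20563 had values in the footprint columns; the other 2849 could not be tested, and 27 rows carried date-like names in place of symbols. Bowtie2, STAR 2.5, featureCounts and Subread 1.4.6, and the builds mm9 and mm10, are named in the submitters' processing notes with no role or order, so which aligner, annotation, strand setting and part of the transcript made the authors' counts is not given in the sources used here. Per the labels' protocols, footprint libraries came from RNase I-protected fragments of monosomes and RNA libraries from rRNA-depleted RNA. Where strand was not used, overlapping and antisense genes cannot be told apart.

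BC048546 was removed before totals were taken. Genes with too few counts were dropped with filterByExpr at a minimum count of 10, libraries were scaled by TMM (factors 0.988 to 1.01), and KO was tested against control over the 6 footprint libraries with group means alone in edgeR 4.0.16 (R 4.3.3, limma 3.58.1), two-sided, adjusted by Benjamini-Hochberg over 12175 genes. CPM are counts scaled by library total and TMM factor, and the SE of a log2 fold change is its size over the square root of F. RNA values are log2 ratios of group mean CPM over 8 libraries and were not tested. The script was tested on simulated data.

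The members and the 55 gene lists were chosen with earlier results of these data known. Lists are described by counts and medians, with no test. Genes were named by rule: the 8 largest rises and falls at 5 CPM or more without overlap, and per list the 2 largest called rises and falls at 10 CPM or more and the member with the most counts; every tested member of a list of at most 8 could be named. Alternatives were plain totals, RLE factors, DESeq2 1.42.0, other filters, the title prefix as a block, BC048546 kept, all libraries in 1 fit, a minimum fold of 1.2, each library left out, and, chosen after the data were seen, the spread of the RNA libraries. Protein sequences were not used here, so classes by protein length were not made. A few genes that the rule names are not reported here, though they remain in the counts.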

Additional observations from a re-analysis of the deposited data

Results flagged for a closer look

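The summed RNA of the immediate early transcription factors had 1 library far from the others in both genotypes. In control RNA the 4 mice were at 520.9, 540.3, 539.2 and 816.9 CPM (mice 1, 3, 6 and 8), and the gap between mouse 8 and the nearest other was 0.934 of the range. In KO RNA they were at 1252, 1248, 735.1 and 1225 CPM (mice 2, 4, 5 and 7), and the gap below mouse 5 was 0.948 of the range. Mice 5 to 8 share a prefix in their sample titles, and none of these 4 has a footprint library. The same check was made on the summed RNA of the 12 lists of cell type and region markers. Choroid plexus markers stood out in the same mice: 43.6, 46.5, 50.1 and 317 CPM in the control mice 1, 3, 6 and 8 and 36.3, 35.2, 147 and 34.98 CPM in the KO mice 2, 4, 5 and 7, with gaps of 0.976 of the range above the other controls and 0.988 above the other KO mice. Within KO RNA mouse 5 was also highest in excitatory neuron markers (gap 0.894), astrocyte markers (0.934) and Alas2, the tested red blood cell gene (0.899), and lowest in endothelial and mural markers (0.879). The limit of the check is one that chance passes in about 1 in 20 groups of this size, and 26 groups were checked. The footprint groups of 3 are too small for such a check.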

How the results depend on the processing

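The number of genes called differed between settings. Against 3113 calls (1431 higher, 1682 lower), DESeq2 called 1718 (723 and 995), the fit of all 14 libraries 1683 (717 and 966), a fold change of at least 1.2 left 469 (183 and 286), and the spread of the RNA libraries, an alternative chosen after the data were seen, 1251 (528 and 723). The cause of the difference was not tested. Leaving out 1 library gave 2556 to 2857 calls, with 1159 to 1295 higher and 1377 to 1562 lower, and an Fmr1 log2 fold change of -4.03 to -3.78. Plain totals, RLE factors, both other filters and BC048546 kept gave 2993 to 3157 calls. Plain totals moved the median of all genes by 0.027 (log2) and the share of calls that were higher from 45.97% to 54.74%. In none of these fits did a gene called in both change sign.

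With the title prefix as a replicate block 3226 genes were called, of which 3110 were shared. Each footprint prefix held a control and a KO library. Correlations of deviations were 0.050, 0.0010 and 0.034 between same-prefix libraries and -0.053 to 0.021 between the others. So few pairs cannot decide whether the prefixes pair the samples. All 218 named genes that were called were also called with the block. Of these, 193 to 199 kept their call when 1 library was left out, 166 with DESeq2, 144 in the fit of all libraries, 128 with the spread of the RNA libraries and 77 at a fold change of at least 1.2. At that fold, rises came to 1 of 20 in complex I, 2 of 23 in the mitochondrial ribosome and 0 of 13 in the proteasome, and 14 of 31 giant linkers, 11 of 46 chromatin genes and 35 of 131 FMRP targets fell. Over all genes 183 of 1431 rises and 286 of 1682 falls were left at that fold. The classes by protein length were not run. Under 10 CPM 8.55% of genes were called; the part of depth in this was not tested.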

Other observations

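Among the other cell types, markers of microglia and vessels moved in both directions. The lysosomal protease Ctss was at 95.8, 92.4 and 100.6 in control and 126, 132 and 136 CPM in KO libraries (log2 change 0.45 ± 0.057, adjusted p = 2.27e-10), and the complement subunit C1qb was at 85.0, 72.8 and 72.7 in control and 54.5, 56.4 and 52.4 CPM in KO libraries (log2 change -0.48 ± 0.075, adjusted p = 1.22e-07). Both microglial genes were apart between genotypes, in opposite directions. Of vessel markers, the surface protein Ly6c1 was at 8.36, 10.04 and 8.43 in control and 14.9, 13.2 and 12.4 CPM in KO libraries (log2 change 0.58 ± 0.17, adjusted p = 0.00730) and the tight junction protein Cldn5 at 62.6, 69.1 and 61.7 in control and 45.6, 49.6 and 51.5 CPM in KO libraries (log2 change -0.40 ± 0.080, adjusted p = 3.72e-05), again apart and opposite. With all 14 libraries in 1 fit no vessel marker was called, and Ly6c1 was also not called in DESeq2 (adjusted p = 0.0714). Among markers of thalamus and habenula none rose and 3 of 8 fell (RNA spread 0 and 1; median level 19.1 CPM; 0% and 37.5% against 9.68% and 8.94%), and 1 fell without KO replicate 1. The kinase gene Prkcd was at 21.7, 19.01 and 20.5 in control and 11.5, 10.2 and 11.7 CPM in KO libraries (log2 change -0.87 ± 0.15, adjusted p = 1.67e-06). The thalamic transcription factor Tcf7l2 overlapped at 20.1, 17.8 and 19.95 in control and 17.05, 18.7 and 20.1 CPM in KO libraries (log2 change -0.044 ± 0.13, adjusted p = 0.854). Excitatory layer markers also differed among themselves: Neurod6 rose from 76.3 ± 2.35 to 91.0 ± 5.04 CPM (log2 change 0.26 ± 0.066, adjusted p = 0.00121, or 0.111 with the RNA spread), and Bcl11b fell from 84.7 ± 2.32 to 68.2 ± 6.46 CPM (log2 change -0.32 ± 0.070, adjusted p = 1.76e-04; SD, n = 3).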
